A study of Mus musculus with 4 samples.

Results

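The genes described here encode the parts of the mitochondrial respiratory chain that the nuclear genome supplies, and they were chosen by gene symbol alone: the Nduf genes of complex I, Sdha to Sdhd of complex II, the Uqcr genes of complex III, Cox4 to Cox8 of complex IV, the Atp5 genes of complex V, and the cytochrome c genes Cycs and Cyct. Symbols ending in -ps were left out, which removed 4 genes. The rule took 95 of the 25265 genes in the deposited count table, and 93 of those 95 passed a filter on low counts and were tested. The other two, Ndufb4c and Ndufs6b, are annotated as processed pseudogenes, as is Ndufa11b, and had at most 8 counts in any library. RNA from whole testes, taken from C57BL/6 mice of postnatal day 56 and depleted of ribosomal RNA, was sequenced in 4 libraries, of which 2 carry the label control and 2 the label Ythdf2-vKO. The series title describes the mutants as germ cell-specific for Ythdf2, whose protein reads N6-methyladenosine on RNA and promotes decay of the RNA it binds. The driver of the deletion and the alleles of the control mice are not given in the sources used here, and the supporting cells of a testis mutated in germ cells would still carry Ythdf2. The labels do not say that each library came from a separate animal, so p-values measure only the spread between these libraries, which may be technical.

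The targeted gene did not match its label. Ythdf2 had 1193 and 1604 counts in the control libraries and 1774 and 1807 in those labelled vKO, and its log2 fold change of 0.35 (SE 0.13) had an adjusted p of 0.238. Counts over a whole gene do not show whether an exon is missing, and groups are called by their labels here. The control libraries held 24862518 and 29561182 counts, the labelled-vKO libraries 26298245 and 26265700, of which the respiratory chain genes took between 0.595% and 0.658%. Over these genes, replicates differed by more than counting noise (chi-square per df 14.8 between control libraries and 6.07 between labelled-vKO libraries). The calls over all genes depended on single libraries: 83 genes were called with all 4 libraries, 1512 without control library 1, 1077 without control library 2 and 35 without labelled-vKO library 1. Some cell type markers lay mostly to one side of 0. All 10 Sertoli cell markers had a log2 fold change above 0, with a median of 0.47 and summed levels of 1016 and 1072 CPM (counts relative to the scaled library total) in control against 1462 and 1288, and 1 of them, Wt1, was called. Of 10 elongating spermatid markers, 1 lay above 0, with a median of -0.27 and summed levels of 15110 and 12378 CPM in control against 11704 and 12009, and 0 were called. Round spermatid markers had 4 of 10 above 0 and a median of -0.05. Spermatocyte markers had 2 of 10 above 0 and a median of -0.14, and 0 were called. Their summed levels were 2719 and 2419 CPM in control against 2882 and 2555, which overlap. In RNA from a whole testis, fewer cells of a type and less RNA per cell cannot be told apart, and the part of cell composition in the values that follow was not tested.

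The respiratory chain passes electrons from NADH, through complex I, or from succinate, through complex II, to ubiquinone, then through complex III and cytochrome c to complex IV, where oxygen is reduced. Complexes I, III and IV pump protons, and complex V, the ATP synthase, makes ATP from the gradient. A few subunits are made in the mitochondrion from its own genome and the rest are imported. Germ cells in the testis change part of this equipment as they mature: they replace somatic cytochrome c by a testis form, Cyct, and use the complex IV subunits Cox6b2, Cox7b2 and Cox8c beside or in place of Cox6b1, Cox7b and Cox8a. Sertoli cells, which nourish the germ cells, lean on glycolysis, while spermatocytes and spermatids take up lactate and respire.

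No respiratory chain gene was called. Of the 93 tested, 0 had an adjusted p under 0.05 in edgeR's quasi-likelihood test over all 21132 genes, where 83 genes (0.393%) did, 59 higher (0.279%) and 24 lower (0.114%) in the labelled-vKO libraries. The smallest adjusted p was 0.240, for Cox8a, and 8 of 93 (8.6%) had an unadjusted p under 0.05 against 14.1% of all genes. The authors' deposited table gives an adjusted p for 91 of these genes, of which the smallest is 0.331 and 0 lie under 0.05, against 217 of 16448 genes (1.32%). The authors' deposited table gives 5 of the 95 an unadjusted p under 0.05, against 8.76% of all 25265 genes. In tests on simulated counts of this comparison's 21132 genes, 176 of 200 genes changed by a fold of 2 were called, with 9 false calls. Those counts were drawn with the same dispersion for every gene and group, and scarce genes were not among those changed. They therefore do not give the share of real changes that this comparison would find.

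Respiratory chain genes also lay close to 0 in size. Their median log2 fold change was -0.03 (25th to 75th percentile -0.10 to 0.08) against 0.00 (-0.19 to 0.23) over all genes, and the sign of that median turned to 0.03 when libraries were scaled by their totals alone and to 0.02 with an offset for transcript length. Above 0 lay 41 of 93 (44.1%), against 50.3% of all genes. An absolute log2 fold change over 0.5 was seen in 3 of 93 (3.23%), Cox7a1, Ndufa1 and Ndufaf6, against 16.8% of all genes. Many genes in the table are scarce and scatter more, so the same was counted among genes of at least 10 CPM: 0 of 83 respiratory chain genes passed 0.5, against 4.42% of 10352. At that level 0 of 83 were called, against 0.406%. For 65 of those 83 (78.3%) the whole 95% interval of the log2 fold change lay between -0.5 and 0.5, against 57.5% of all genes at that level. It lay within a fold of 2 for 83 of 83, close to the 97.9% of all genes at that level. Called genes of at least 10 CPM started at an absolute log2 fold change of 0.62. Summed over all 95 genes, levels were 6331 and 6491 CPM in control (6411 ± 113, SD, n = 2) and 6220 and 6386 in the labelled-vKO libraries (6303 ± 118, SD, n = 2), so the groups overlapped.

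**Figure D1:**
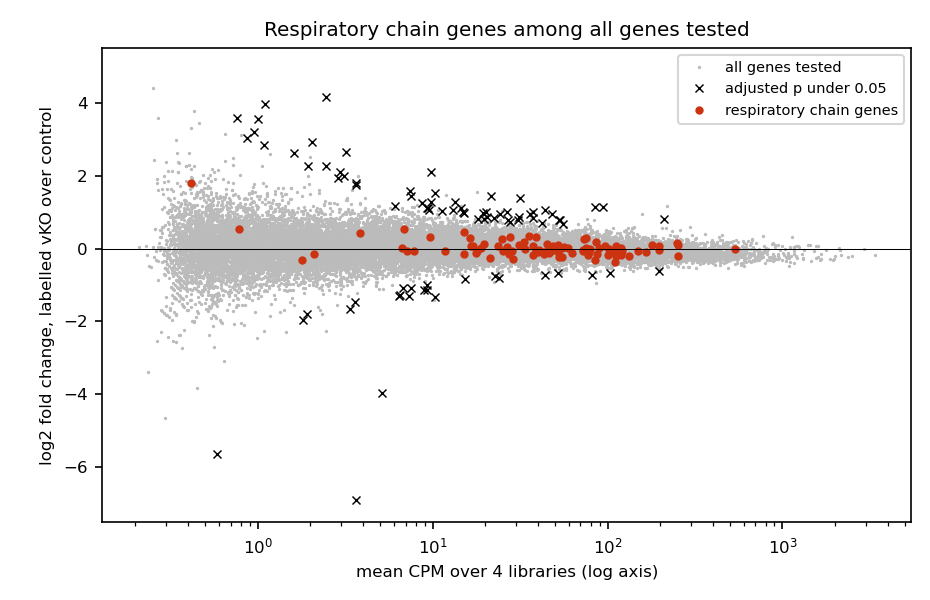
Log2 fold change, labelled vKO over control, against mean CPM over the 4 libraries on a log axis, with one grey point per tested gene, black crosses for the 83 genes called and red points for the 93 tested respiratory chain genes. No red point is a cross, and the red points lie near 0 except at the low end of the level axis, where Cox7a1 stands at 1.79.

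**Figure D2:**
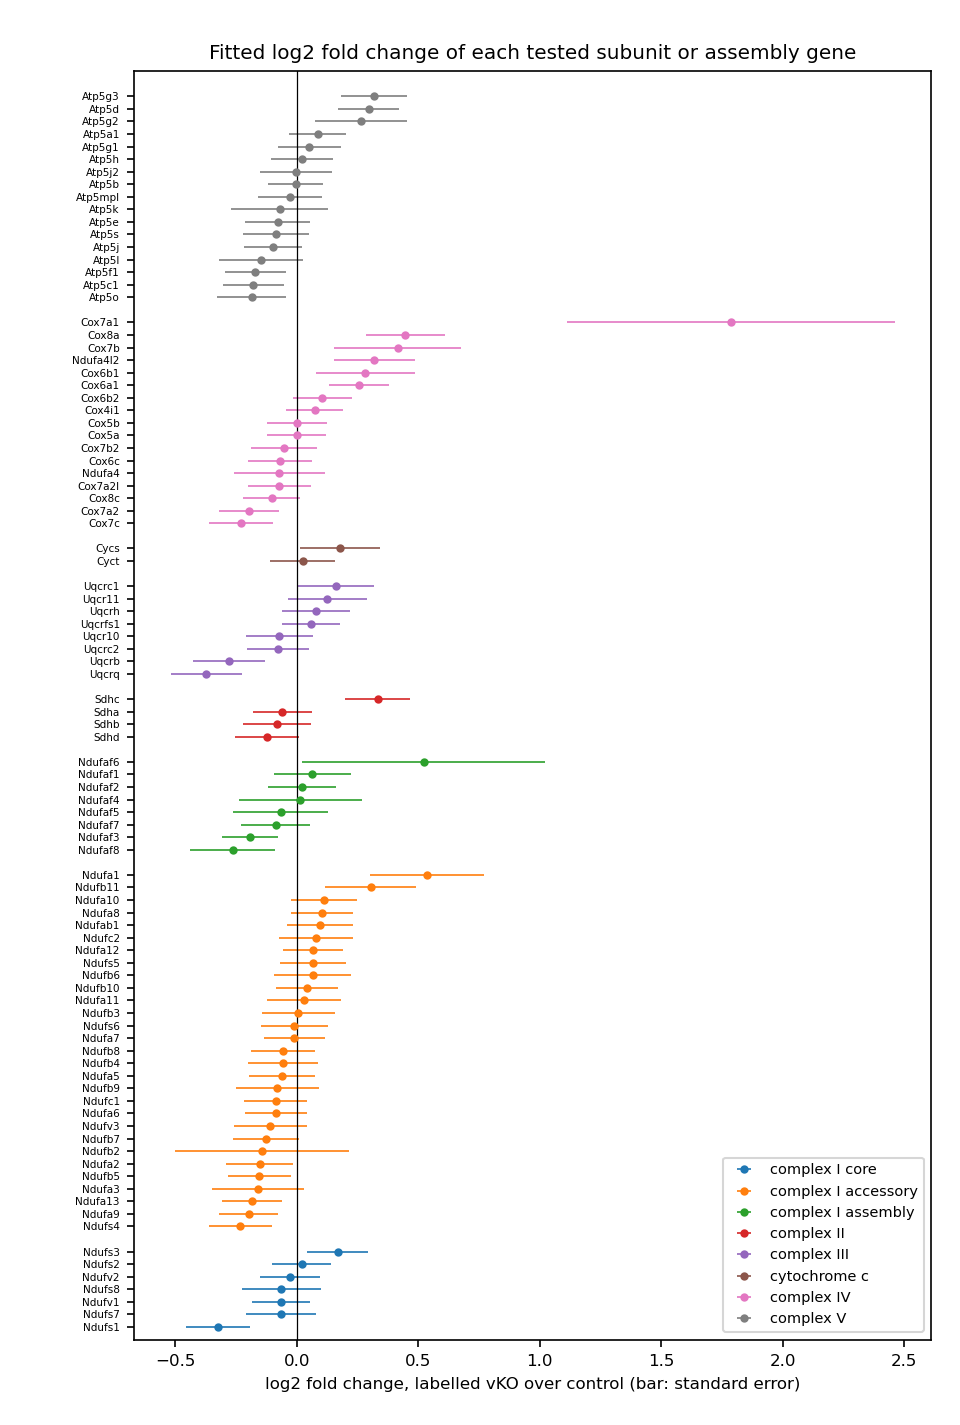
Fitted log2 fold change of 92 of the 93 tested genes (Ndufa11b is left out), grouped and coloured by complex, where bars are standard errors of the fit over 2 libraries a group. Most bars cross 0, and the widest bar belongs to Cox7a1, counted 3 to 20 times a library.

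The testis form held most of the counts of its pair in every library, for 4 of 4 pairs. Cox6b2 (chr7:4751792-4753094 in build GRCm38), a testis subunit of complex IV, was measured at 181 and 166 CPM in control and 180 and 193 in the labelled-vKO libraries. Its somatic partner Cox6b1 (chr7:30616861-30626151) was at 12.3 and 17.3 CPM in control and 15.3 and 20.8 in the labelled-vKO libraries. Both groups overlapped for each gene, and Cox6b1 had a log2 fold change of 0.28 with an SE of 0.20 (adjusted p 0.585), which was 0.05 without control library 1, 0.04 without labelled-vKO library 2, 0.49 without labelled-vKO library 1 and 0.56 without control library 2. That of Cox6b2 was 0.11 (SE 0.12, adjusted p 0.758) and turned to -0.01 with the GC offset. Cox6b2 thus made up 93.6% and 90.6% of the counts of its pair in control (92.1% ± 2.18, SD, n = 2) and 92.2% and 90.3% in the labelled-vKO libraries (91.2% ± 1.34, SD, n = 2). The 2 groups overlapped, and the difference of -0.88 percentage points had an exact two-sided permutation p of 0.667.

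Cox7b2 (chr5:71442824-71548205) is the testis form of another small complex IV subunit. It was at 69.2 and 78.4 CPM in control and 65.97 and 76.4 in the labelled-vKO libraries, which overlap. Its log2 fold change of -0.05 (SE 0.13) turned positive with the GC offset, the length offset and library totals, up to 0.05. Its partner Cox7b, on the X chromosome (chrX:106015700-106022450), was far lower, at 2.74 and 3.84 CPM in control and 4.30 and 4.52 in the labelled-vKO libraries. Both labelled-vKO values lay above both control values for Cox7b, but its log2 fold change of 0.42 (SE 0.26) had an adjusted p of 0.521 and ran from 0.19 without control library 1 to 0.69 without control library 2. Cox7b2 held 96.2% and 95.3% of the pair in control (95.8% ± 0.608, SD, n = 2) and 93.9% and 94.4% in the labelled-vKO group (94.1% ± 0.371, SD, n = 2), a difference of -1.62 points. Those shares did not overlap, and the exact permutation p of 0.333 is the smallest that 2 libraries against 2 can give. Per kilobase of transcript the difference in share fell to -0.92 points. Cox7b has processed copies elsewhere in the genome that match its transcript, and how reads with several matches were counted is not given in the sources used here.

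Cox8c (chr12:102899316-102900526), the testis form of the smallest class of complex IV subunits, was at 172 and 173 CPM in control and 154 and 167 in the labelled-vKO libraries. Cox8a (chr19:7215153-7217616), the form used by most tissues, was at 12.5 and 13.2 CPM in control and 18.6 and 16.5 in the labelled-vKO libraries. For Cox8c both labelled-vKO values lay below control and for Cox8a both lay above it. Cox8a had a log2 fold change of 0.45 with an SE of 0.16 (adjusted p 0.240), which fell to 0.26 (adjusted p 0.533) with the GC offset. That of Cox8c was -0.10 (SE 0.12, adjusted p 0.761) and turned to 0.00 with an offset for transcript length. The share of Cox8c was 93.2% and 92.9% in control (93.1% ± 0.245, SD, n = 2) and 89.2% and 91.0% in the labelled-vKO group (90.1% ± 1.28, SD, n = 2). The groups did not overlap, the difference was -2.94 points, and the exact permutation p was again 0.333. Counting error alone gave 95% Wilson intervals of 92.4% to 93.9% and 92.2% to 93.5% for control libraries 1 and 2. Those for labelled-vKO libraries 1 and 2 were 88.3% to 90.1% and 90.2% to 91.8%. Such intervals leave out the spread between replicates, which exceeded counting noise over these genes. They overlapped between the groups for Cox6b2, Cox7b2 and Cyct. For Cox7b2 they were 94.4% to 96.1% in control library 2 and 93.4% to 95.3% in labelled-vKO library 2.

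The cytochrome c pair was more even. Cyct (chr2:76353942-76360450), the form that carries electrons in spermatocytes, spermatids and sperm, was at 54.0 and 63.9 CPM in control and 61.0 and 59.0 in the labelled-vKO libraries. Somatic Cycs (chr6:50562563-50566538), which also triggers the apoptosome when released into the cytosol, was at 26.1 and 36.1 CPM in control and 37.2 and 33.2 in the labelled-vKO libraries. Groups overlapped for both genes, and the log2 fold changes were 0.02 for Cyct (SE 0.13, adjusted p 0.964) and 0.18 for Cycs (SE 0.17, adjusted p 0.696). Both signs turned without control library 1, to -0.10 and -0.04, and without control library 2 they were 0.15 and 0.43. Cyct held 67.5% and 63.9% of the counts of the pair in control (65.7% ± 2.51, SD, n = 2) and 62.1% and 64.0% in the labelled-vKO group (63.0% ± 1.34, SD, n = 2), a difference of -2.62 points with an exact permutation p of 0.667. The Cycs transcript is much longer, so per kilobase the share of Cyct was 90.1% in control and 89.0% in the labelled-vKO group. Over the 4 pairs the testis form had the lower mean share in the labelled-vKO libraries in 4 of 4, and the p-values adjusted over these 4 tests were all 0.667. The sign for Cox6b2 turned when control library 1 or labelled-vKO library 2 was left out.

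**Figure D3:**
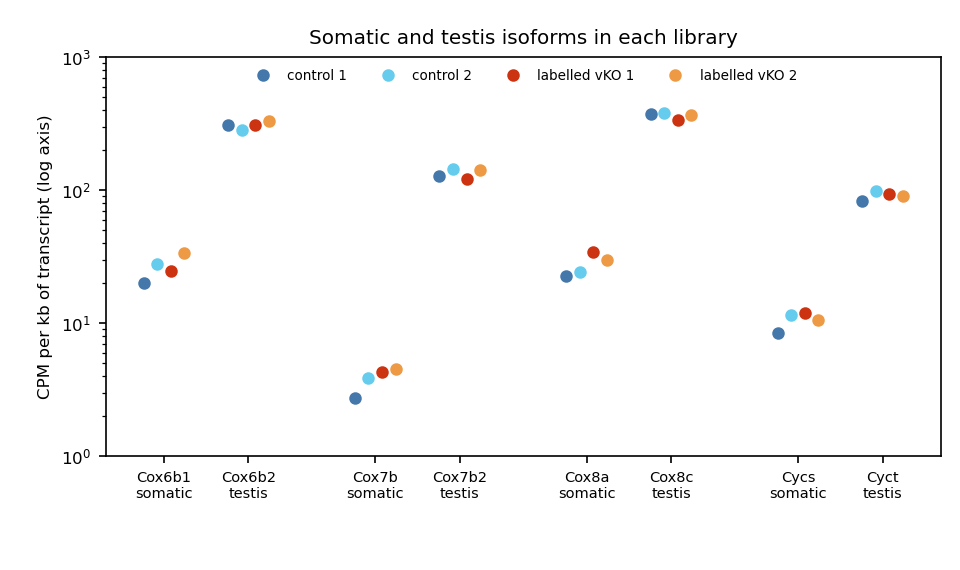
Level per kilobase of the longest annotated transcript (CPM per kb, log axis) of the somatic and testis forms in each of the 4 libraries, one point per library. Cox6b2, Cox7b2, Cox8c and Cyct stand above their partners in every library, and the points of Cox8a and Cox7b lie higher in the labelled-vKO libraries than in control.

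The coding sequences of each pair differed along their length. Identity was 51.6% between Cox6b1 and Cox6b2, 63.9% between Cox7b and Cox7b2, 51.5% between Cox8a and Cox8c and 76.1% between Cycs and Cyct. The last pair is shown because it is the closest of the 4: both reading frames are 318 bases long in the GENCODE M21 transcripts, 76 bases differ, and the longest identical run is 14 bases. Bases 1 to 240 follow, with the differing bases in capitals.
Cycs coding bases: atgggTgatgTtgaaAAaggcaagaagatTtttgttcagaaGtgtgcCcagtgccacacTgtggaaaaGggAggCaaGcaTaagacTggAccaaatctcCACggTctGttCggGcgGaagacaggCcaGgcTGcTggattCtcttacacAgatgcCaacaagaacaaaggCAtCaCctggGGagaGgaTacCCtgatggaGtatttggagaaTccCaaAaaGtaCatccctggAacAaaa
Cyct coding bases: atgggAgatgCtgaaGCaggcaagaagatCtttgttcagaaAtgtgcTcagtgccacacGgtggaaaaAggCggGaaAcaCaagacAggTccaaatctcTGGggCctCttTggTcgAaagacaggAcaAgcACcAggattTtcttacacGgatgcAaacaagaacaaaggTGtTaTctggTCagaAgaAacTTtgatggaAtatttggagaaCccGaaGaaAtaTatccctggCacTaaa
The differences are spread along the frame. Cycs has a closer match elsewhere: a processed copy, Gm10053, is 99.9% identical over 946 bases and was counted 15, 19, 13 and 10 times in the libraries, in the order control 1, control 2, labelled vKO 1 and labelled vKO 2. In all, 26 of the 95 genes have a copy of at least 95% identity over at least 200 bases, and their counts are uncertain to that extent.

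Complex I takes electrons from NADH. Its core subunits carry the flavin, the iron-sulfur clusters and the quinone site. Among 7 nuclear core genes, 2 had a log2 fold change above 0, the median was -0.06, and 0 were called. Ndufs1, the large iron-sulfur subunit of the NADH-oxidising arm, was at 87.4 and 100.3 CPM in control and 78.5 and 71.4 in the labelled-vKO libraries. Both labelled-vKO values lay below control, and the log2 fold change was -0.32 (SE 0.13, unadjusted p 0.0273, adjusted p 0.285). Without control library 1 it was -0.43 with an adjusted p of 0.0253, in a fit where 6.82% of all genes were called. Ndufs3, another core subunit, was at 84.2 and 76.6 CPM against 89.1 and 91.6, above control in both libraries, with a log2 fold change of 0.17 (SE 0.12), an adjusted p of 0.599 and a value of 0.09 with the GC offset and replicate block. The most abundant core gene was Ndufv2, at 186 and 213 CPM in control and 190 and 200 in the labelled-vKO group, which overlap (log2 fold change -0.03, SE 0.12). That sign turned with the GC offset, with library totals and without control library 2 or labelled-vKO library 1.

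Accessory subunits surround that core and are needed for its assembly or stability. Of 29 accessory genes, 12 lay above 0, the median was -0.06 and 0 were called. Ndufa1, an accessory subunit of the membrane arm encoded on the X chromosome (chrX:37187588-37191163), was at 6.37 and 4.90 CPM in control and 9.56 and 6.75 in the labelled-vKO libraries. Its groups did not overlap, though the lower labelled-vKO value came close to the higher control value, and the log2 fold change was 0.54 (SE 0.24, unadjusted p 0.0400, adjusted p 0.325). It ran from 0.26 without labelled-vKO library 1 to 0.76 without labelled-vKO library 2. Ndufs4, which helps hold the NADH-oxidising arm together, was at 57.5 and 61.9 CPM against 48.3 and 53.4, below control in both libraries, with a log2 fold change of -0.23 with an SE of 0.13 (adjusted p 0.464). Ndufa9, the most abundant accessory gene by CPM, was at 115 and 123 CPM against 105 and 102 and also lay below control (log2 fold change -0.20, SE 0.12, adjusted p 0.502). Ndufa13 was the only respiratory chain gene called lower with the replicate number as a block and an offset for GC content (log2 fold change -0.40, adjusted p 0.0162, where 4.32% of all genes were called). It was at 81.4 and 82.9 CPM in control and 70.8 and 73.9 in the labelled-vKO libraries. Its exons overlap those of Tssk6, a spermatid kinase gene on the opposite strand, over 375 bases (29.98%), and whether strand was used in counting is not given in the sources used here.

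Assembly factors help build complex I and are absent from the finished enzyme. Of 8 in the symbol rule, 4 lay above 0, the median was -0.03 and 0 were called. Ndufaf3 was the most abundant, at 270 and 269 CPM in control and 231 and 240 in the labelled-vKO libraries, both below control (log2 fold change -0.19, SE 0.12, adjusted p 0.499, and -0.32 with the GC offset). Ndufaf8 was at 20.96 and 25.6 CPM against 16.6 and 22.2, where the groups overlapped (-0.26, SE 0.18, adjusted p 0.549). That log2 fold change ran from -0.49 without labelled-vKO library 2 to -0.07 without labelled-vKO library 1. Ndufaf1 was at 15.3 and 17.1 against 16.2 and 17.8, also overlapping (0.06, SE 0.16), with a sign that turned without control library 1 or labelled-vKO library 2. Per kilobase, Ndufaf3 at 170 CPM per kb stood well above the 8-gene lowest value of 0.726 for Ndufaf6.

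Complex II oxidises succinate and is shared with the tricarboxylic acid cycle. Its 4 genes gave 1 value above 0 and a median of -0.07. Sdhc (chr1:171127165-171150603), a membrane anchor that binds haem and quinone, was at 32.4 and 30.5 CPM in control and 39.0 and 40.3 in the labelled-vKO libraries. Both labelled-vKO values were higher, and the log2 fold change was 0.33 (SE 0.13, unadjusted p 0.0273, adjusted p 0.285). The other anchor, Sdhd, was at 47.0 and 49.7 CPM against 43.5 and 45.3, below control in both (-0.12, SE 0.13, adjusted p 0.736, and -0.06 with library totals). The flavoprotein gene Sdha was at 157 and 146 CPM against 152 and 139, overlapping (-0.06, SE 0.12), and its sign turned to 0.01 with library totals. The 2 anchors thus lay on opposite sides of control, although neither passed the test and the difference between them was not tested.

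Complex III passes electrons from ubiquinol to cytochrome c. Among its 8 genes in the rule, 4 lay above 0, the median was -0.01 and 0 were called. Uqcrq (chr11:53427922-53430831), a small subunit that contacts cytochrome b, was at 142 and 108 CPM in control and 91.3 and 102 in the labelled-vKO libraries. Control library 1 stood well above the other 3, the groups did not overlap, and the log2 fold change was -0.37 (SE 0.15, unadjusted p 0.0248, adjusted p 0.275). Without control library 2 it was -0.56 with an adjusted p of 0.00116, in a fit where 4.93% of all genes were called, and without control library 1 it was -0.16 (adjusted p 0.547). Uqcrc1, a core protein of the matrix side, was at 278 and 195 CPM against 274 and 255. Here control library 2 stood apart as the lowest, the groups overlapped, and the log2 fold change of 0.16 (SE 0.16, adjusted p 0.715) became 0.43 (adjusted p 0.00967) without control library 1 and -0.07 without control library 2.

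Complex IV reduces oxygen, and its nuclear subunits include the tissue-specific forms. Of 17 genes, with Ndufa4 and Ndufa4l2 counted here, 10 lay above 0, the median was 0.00 and 0 were called. Cox7a1, a form best known from heart and skeletal muscle, was counted 3 and 7 times in control and 15 and 20 times in the labelled-vKO libraries, which is 0.128 and 0.233 CPM against 0.560 and 0.741. Both labelled-vKO values were higher, and the log2 fold change of 1.79 (SE 0.67, unadjusted p 0.0201, adjusted p 0.256) has a 95% interval from 0.33 to 3.25, with few reads behind it. Summed muscle markers were at 4.32 and 4.003 CPM in control and 4.22 and 3.63 in the labelled-vKO libraries, so they overlapped, and of 9 listed genes 5 were in the table and 3 were tested. Cox7a2, the form of that subunit found in most tissues, was at 140 and 143 CPM against 116 and 131, below control in both (-0.20, SE 0.12, adjusted p 0.518, and -0.11 without labelled-vKO library 1). Cox7a1 made up 0.127% of the counts of the pair in control and 0.522% in the labelled-vKO group.

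Other complex IV genes stayed nearer to 0. Cox6a1, the common form of a regulatory subunit, was at 65.8 and 67.3 CPM in control and 80.8 and 78.0 in the labelled-vKO libraries, with both labelled-vKO values above control (log2 fold change 0.25, SE 0.12, adjusted p 0.381). With the GC offset that log2 fold change was 0.06 (adjusted p 0.887). Cox7c was at 53.4 and 59.9 CPM against 47.0 and 49.8, below control in both (-0.23, SE 0.13, adjusted p 0.477, and -0.13 with the GC offset and replicate block). Cox4i1, a core-binding subunit that senses adenine nucleotides, was the most abundant of the group by CPM, at 200 and 183 against 198 and 205, overlapping (0.07, SE 0.12), with a sign that turned to -0.10 with the GC offset. Ndufa4l2, a relative of Ndufa4 known for its induction in low oxygen, was at 28.5 and 20.7 CPM against 29.8 and 31.5. Its log2 fold change of 0.32 (SE 0.17, adjusted p 0.416) became 0.56 (adjusted p 0.0243) without control library 1 and 0.11 without control library 2. No gene with the symbol of the tissue-restricted forms Cox4i2, Cox6a2 or Cox8b was in the deposited count table. The lowest total of any gene there was 10 counts over the libraries, so genes with fewer counts may have been left out.

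Complex V makes ATP. Of its 17 genes 6 lay above 0, the median was -0.03 and 0 were called. Atp5b, the catalytic beta subunit, was the most abundant respiratory chain gene, at 543 and 525 CPM in control and 540 and 524 in the labelled-vKO libraries. Its groups overlapped almost fully, and the 95% interval of its log2 fold change ran from -0.25 to 0.24. Atp5d, the delta subunit of the rotor stalk, was at 68.5 and 66.3 CPM against 79.0 and 86.6, above control in both (0.30, SE 0.13, unadjusted p 0.0347, adjusted p 0.311). With the GC offset its log2 fold change was 0.10. Atp5o, the subunit that joins the stator to the catalytic head, was at 38.4 and 41.8 CPM against 32.5 and 38.1, below control in both (-0.19, SE 0.14, adjusted p 0.614). That value ran from -0.31 without labelled-vKO library 2 to -0.08 without labelled-vKO library 1.

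The membrane ring of complex V is built from subunit c, and 3 genes encode the same mature protein with different import sequences. Atp5g3 (chr2:73908447-73911326) was at 32.3 and 37.2 CPM in control and 44.1 and 42.6 in the labelled-vKO libraries, above control in both (log2 fold change 0.32, SE 0.14, unadjusted p 0.0376, adjusted p 0.320). Atp5g1 was at 46.2 and 49.7 CPM against 49.8 and 49.6, overlapping (0.05, SE 0.13), and its sign turned to -0.01 without control library 1. Atp5g2 was at 17.9 and 27.2 CPM against 25.8 and 28.6, with control library 1 the lowest (0.26, SE 0.19, adjusted p 0.580), and it was 0.60 (adjusted p 0.0254) without control library 2 and -0.01 without control library 1. Atp5g1 took 45.7% of the counts of the 3 genes in control and 41.3% in the labelled-vKO group, and Atp5g3 took 33.1% and 36.1%. Per kilobase of the longest transcript Atp5g1 took 11.5% and 9.79%, and Atp5g3, whose groups then overlapped, took 54.2% and 55.7%. That order depends on the transcript chosen. With the shortest transcript of each gene, Atp5g1 was the highest at 81.9 CPM per kb over the 4 libraries, against 56.4 for Atp5g2 and 54.7 for Atp5g3. Atp5g1 and Atp5g2 both have a near-identical copy elsewhere in the genome.

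**Figure D4:**
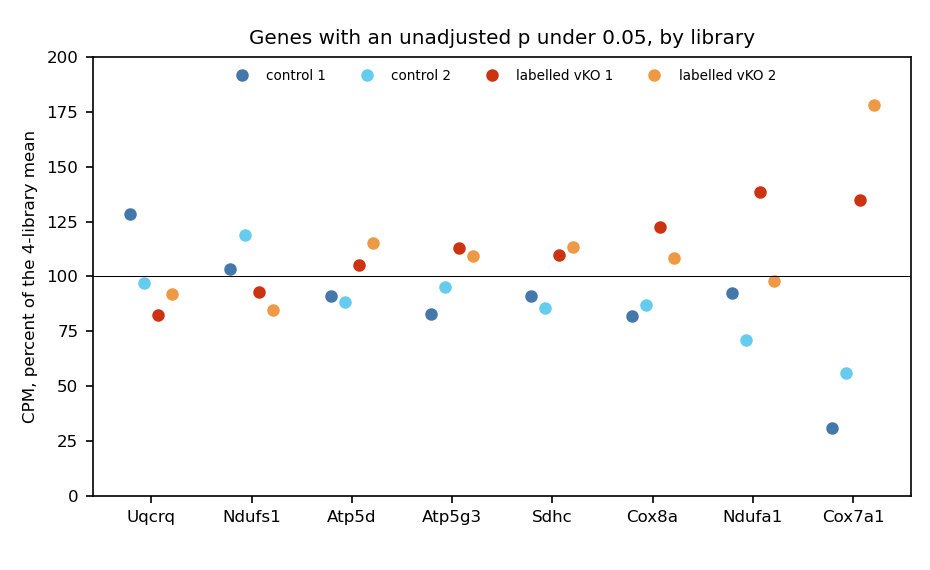
CPM in each library as a percent of the mean over the 4 libraries, for the 8 genes with an unadjusted p under 0.05, ordered by log2 fold change; one point per library. For all 8 the control and labelled-vKO points do not overlap, with Uqcrq and Ndufs1 lower and the other 6 higher in the labelled-vKO libraries, and 0 of the 8 passed adjustment over all genes.

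The groups did not overlap for 37 of the 93 tested genes (39.8%), 16 with both labelled-vKO values above control (17.2%) and 21 with both below (22.6%). Over all genes these shares were 45.3%, 22.7% and 22.6%, so the shares among respiratory chain genes were at or under the background. The 6 genes that were higher at an unadjusted p under 0.05 (6.45%, against 7.65% of all genes) came from complexes I, II, IV and V, and the 2 that were lower (2.15%, against 6.47%) from complexes I and III.

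Levels per length placed 2 of the 3 testis forms at the top of complex IV. Cox8c, at 363 CPM per kb of its longest transcript, and Cox6b2, at 308, were the highest of 17, above a median of 87.1, and with the shortest transcript of each gene they were still the top pair. Cox7b2, at 134 CPM per kb, ranked 12 of 17 from the lowest. Cox7a1, at 0.857, and Cox7b, at 3.84, were the lowest under either length. The order changed with the transcript chosen for genes with long alternative ends: Uqcrq ranked 4 of 8 from the lowest in complex III at 72.8 CPM per kb, and was the highest at 274 with its shortest transcript. Complex I subunits had a median of 38.1 CPM per kb over 36 genes, from 0.481 for Ndufb2 to 151 for Ndufa7.

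The 3 X-linked genes, Ndufa1, Ndufb11 and Cox7b, were all low for their complex. Ndufb11 and Ndufa1 ranked 3 and 5 from the lowest of 36 complex I subunits, at 10.7 and 16.5 CPM per kb, and Cox7b ranked 2 of 17 in complex IV. The X chromosome is silenced in spermatocytes at pachytene and stays largely repressed in round spermatids, whereas spermatogonia and somatic cells transcribe it. Ndufb11, an accessory subunit of the membrane arm, was at 7.96 and 9.34 CPM in control and 11.3 and 10.1 in the labelled-vKO libraries, above control in both (log2 fold change 0.30, SE 0.19, adjusted p 0.509). All 3 X-linked genes had labelled-vKO values above control, against 22.7% of all genes, with summed levels of 17.1 and 18.1 CPM in control and 25.1 and 21.4 in the labelled-vKO libraries. Their log2 fold changes stayed above 0 in each of the 17 fits made, between 0.19 and 0.76. Those fits reuse the same libraries, and leaving any library out could hardly turn the sign where the groups do not overlap. The constant sign therefore adds little to the lack of overlap. None of the 3 genes was called. Beside them, 9 of 9 tested spermatogonial markers lay above 0 (median 0.28, summed 101 and 99.0 CPM against 122 and 109) and 7 of 8 Leydig cell markers did (median 0.38, summed 301 and 365 CPM against 478 and 357), as did the Sertoli cell markers given above. Peritubular myoid markers had 2 of 5 above 0 (median -0.05, summed 48.2 and 81.1 CPM against 78.5 and 55.4). Macrophage markers had 6 of 7 above 0 (median 0.07, summed 61.8 and 107.8 CPM against 98.6 and 83.5). Endothelial markers had 4 of 6 above 0 (median 0.40, summed 36.5 and 25.5 CPM against 44.0 and 37.9). Erythrocyte markers had 4 of 4 tested above 0 (median 0.76, summed 26.8 and 32.5 CPM against 42.2 and 39.3). The summed levels of the Leydig cell, peritubular myoid and macrophage lists overlapped between the groups. The part of these cells in the X-linked values was not tested. The group of X-linked genes was formed after the values were seen.

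Promoters were read from RefSeq windows in build GRCm38.p6, where 77 of the 95 genes have a window, 82 windows in all. Nuclear respiratory factor 1 (NRF1) is known for binding a palindrome with GC-rich arms before many respiratory chain genes. In the 250 bases before the start, the NRF1 palindrome, searched as GCGC, any base and TGCGC on both strands, occurred in 15 of 82 windows (18.3%), from 14 genes, against 3.74% of all 32851 windows. The shorter form GCATGCGC, which can lie inside the longer one and was added after the Cycs window had been read, occurred in 12.2% against 2.26%. The ETS letters CCGGAAG occurred in 17.1% against 6.91%, the cAMP response element TGACGTCA in 6.1% against 1.55%, CCAAT in 45.1% against 33.8% and TATAAA in 8.54% against 12.4%. Base composition moved with these shares, since the median GC content was 57.4% in the member windows and 52.4% in all windows, and its part was not tested. A match is a run of letters and not a measured binding site.

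The windows of Sdha, which with Ndufb4 had the most NRF1 matches (3), and of the somatic and testis forms of cytochrome c and of Cox6b are shown because they set an NRF1-rich window beside pairs whose levels differ. All lie on the minus strand, at chr13:74350241-74350490 (Sdha), chr6:50566570-50566819 (Cycs), chr2:76360454-76360703 (Cyct), chr7:30626115-30626364 (Cox6b1) and chr7:4753095-4753344 (Cox6b2), and are written 5′ to 3′ toward the start site. Capitals mark every match to the 6 motifs on either strand.
Sdha promoter: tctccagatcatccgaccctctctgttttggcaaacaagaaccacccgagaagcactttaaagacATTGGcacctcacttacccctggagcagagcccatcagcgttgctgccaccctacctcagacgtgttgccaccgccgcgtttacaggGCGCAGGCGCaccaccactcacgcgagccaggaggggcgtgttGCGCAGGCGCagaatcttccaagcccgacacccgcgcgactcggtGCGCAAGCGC
Cycs promoter: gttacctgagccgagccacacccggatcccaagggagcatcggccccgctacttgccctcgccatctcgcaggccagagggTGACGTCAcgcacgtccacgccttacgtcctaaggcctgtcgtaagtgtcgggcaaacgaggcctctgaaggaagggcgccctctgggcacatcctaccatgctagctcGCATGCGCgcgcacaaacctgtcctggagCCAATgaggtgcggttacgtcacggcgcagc
Cyct promoter: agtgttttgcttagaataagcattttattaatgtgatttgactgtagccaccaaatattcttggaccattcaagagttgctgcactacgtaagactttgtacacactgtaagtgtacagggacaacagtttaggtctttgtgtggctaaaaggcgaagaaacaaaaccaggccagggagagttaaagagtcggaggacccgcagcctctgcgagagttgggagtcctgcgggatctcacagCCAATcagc
Cox6b1 promoter: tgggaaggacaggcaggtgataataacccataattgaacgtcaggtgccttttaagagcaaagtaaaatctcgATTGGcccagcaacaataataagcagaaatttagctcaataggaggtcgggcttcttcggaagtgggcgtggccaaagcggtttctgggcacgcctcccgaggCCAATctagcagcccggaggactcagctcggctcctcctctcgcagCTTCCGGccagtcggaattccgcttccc
Cox6b2 promoter: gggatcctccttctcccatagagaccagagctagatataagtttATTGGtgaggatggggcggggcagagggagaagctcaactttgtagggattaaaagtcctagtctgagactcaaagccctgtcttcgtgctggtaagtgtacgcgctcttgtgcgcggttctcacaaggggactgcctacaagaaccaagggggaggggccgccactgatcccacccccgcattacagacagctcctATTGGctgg
In the Cycs window the capitals are the cAMP response element, the shorter NRF1 form and CCAAT, while in the Cyct window they are CCAAT alone. The Cox6b1 window holds the ETS letters and 2 CCAAT matches, and the Cox6b2 window holds 2 CCAAT matches only. GC content was 64.0% in the Cycs window and 45.6% in that of Cyct. The Cox7b pair, whose windows are not printed, differed from these. The somatic Cox7b window held 1 CCAAT match alone, at a GC content of 43.6%. The testis Cox7b2 window held 3 CCAAT matches and 1 TATAAA match, at 50.4%. The 14 genes with an NRF1 match ranged from 6.66 CPM for Ndufaf4 to 149 CPM for Sdha in mean level over the 4 libraries.

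Other genes of the same pathways were counted from lists written for the purpose, with 0 called in each. The 13 genes of the mitochondrial genome, which encode subunits of complexes I, III, IV and V, had 8 values above 0, a median log2 fold change of 0.10 and 0 with an unadjusted p under 0.05. Their summed level was 5498 and 6868 CPM in control and 6884 and 5981 in the labelled-vKO libraries, which overlap. Of 41 tested assembly factors and subunits outside the symbol rule 22 lay above 0 (median 0.04) and 3 were higher at an unadjusted p under 0.05: Cyc1, Sdhaf1 and Cox18. Over all genes 7.65% were higher and 6.47% lower at that p. Cyc1, the cytochrome c1 subunit of complex III, was at 32.2 and 32.6 CPM against 42.0 and 43.4, above control in both (log2 fold change 0.40, SE 0.13, adjusted p 0.206). Of 14 tricarboxylic acid cycle enzymes 8 lay above 0 (median 0.11), and Suclg1 was the 1 lower at an unadjusted p under 0.05 (-0.29, SE 0.13, adjusted p 0.322). These single genes, and those of the next paragraph, were named after their values were seen.

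Of 15 regulators of mitochondrial biogenesis, 10 lay above 0 (median 0.04), and 4 had an unadjusted p under 0.05, against 14.1% of all genes. Tfam, whose mitochondrial protein packages mitochondrial DNA and acts in the start of its transcription, was at 185 and 163 CPM in control and 130 and 128 in the labelled-vKO libraries. Both values lay below control, and the log2 fold change was -0.43 (SE 0.12, adjusted p 0.152). Counts over a whole gene do not show which of its transcripts was present, so these values do not measure that protein. Ppargc1a, a coactivator of NRF1 and related factors, was counted 45 and 78 times against 25 and 23, also below control (-1.34, SE 0.37, adjusted p 0.145). The related coactivator Pprc1 and the mitochondrial RNA polymerase Polrmt lay above control in both libraries, with log2 fold changes of 0.61 (SE 0.17, adjusted p 0.139) and 0.42 (SE 0.16, adjusted p 0.246). Of 9 testis isoforms of energy metabolism outside the respiratory chain 2 lay above 0 and the median was -0.17. Pgk2, the spermatid form of phosphoglycerate kinase, was at 811 and 764 CPM against 607 and 668, below control in both (-0.31, SE 0.12, adjusted p 0.262).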

How the data were processed

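Whole-testis RNA was measured in 4 libraries, 2 per genotype label, made with a directional kit after ribosomal RNA depletion, per the labels' protocols. The authors deposited raw counts per gene, with a mean normalized count that is a signal scaled by size factors, a log2 fold change, a test statistic (a score: the log2 fold change over its standard error), a p-value and an adjusted p-value, per the file headers. HISAT2 2.1.0 and HTSeq 0.6.1p1 are named per the submitters' processing notes. The genome build, the counting settings and the use of strand are not given in the sources used here.

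Counts were tested with edgeR 4.0.16 (R 4.3.3, limma 3.58.1): TMM scaling, the filterByExpr filter, glmQLFit with robust estimation on genotype, a prior count of 0.125 and Benjamini-Hochberg adjustment over 21132 genes, called at an adjusted p under 0.05. Intervals are at the 95% level. CPM use TMM-scaled totals. Standard errors are the absolute log2 fold change divided by the square root of F. Wilson intervals cover counting error only, since reads carry no molecular identifiers. Isoform shares were compared with exact two-sided permutation tests over libraries. The fit was tested on simulated data. Alternatives were DESeq2 1.42.0, other scalings and filters, GC and length offsets, the replicate number as a block and leaving out each library.

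Lengths and coordinates are from GENCODE M21 (GRCm38), promoters from RefSeq (GRCm38.p6), and copies were searched with BLAST 2.17.0. Of the 25265 identifiers, 25241 were in M21. Genes were named by a rule: any called gene, the tissue isoforms and their partners, and in each complex the most abundant gene and those with the largest changes of either sign at 1 CPM or more. Atp5d, Atp5g1, Atp5g2, Ndufa13, Ndufa4l2, Ndufa7, Ndufaf6, Ndufb11 and Ndufb2 fall outside it and were chosen after their values were seen. The members, lists and rules were chosen with earlier results of these data known.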

Additional observations from a re-analysis of the deposited data

How the results depend on the processing

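Called respiratory chain genes numbered 0 in either direction except when a control library was left out or GC offset and replicate block were combined: 0 to 2 were called higher and 0 to 1 lower over the fits leaving out 1 library, and 1 was called lower with the GC offset and replicate block. A fit without 1 library assumes that the lone library varies like the other group. Over all genes, 59 were called higher and 24 lower. These counts were 137 and 80 with the DESeq2 Wald test, 181 and 37 with library totals, 627 and 390 with the replicate block, 432 and 480 with the block and GC offset, and 373 and 284 with the block and length offset. Without 1 library they ranged from 30 to 1048 and from 5 to 523. The GC offset alone gave 60 lower and the fit without robust estimation 15. For these counts the cause was not tested. No label says that a replicate number marks a shared litter or day, and same-numbered libraries deviated together only weakly (correlation 0.0792 over 17911 genes). The block gave 0 called respiratory chain genes.

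The median log2 fold change of these genes stayed between -0.10 and 0.04. The Cox7b2 share differed by -0.92 points per kilobase. Of 30 named genes 19 never changed sign. Many of the 30 were named for the largest change of either sign in their complex, which favours a stable sign. The count therefore does not describe respiratory chain genes in general. Signs reversed with library totals for Atp5b (0.0615), Cox7b2 (0.0099), Ndufv2 (0.0347) and Sdha (0.0073). They reversed with the GC offset, with and without the block, for Cox4i1 (-0.0964 and -0.096), Cox6b2 (-0.0118 and -0.0104), Cox7b2 (0.052 and 0.0536) and Ndufv2 (0.0587 and 0.0579). With the length offset, with and without the block, they did so for Cox7b2 (0.0435 and 0.0427) and Cox8c (0.0049 in both). Over the fits without 1 library, log2 fold changes with a reversed sign ranged from -0.0285 to 0.0148 for Atp5b, -0.1638 to 0.0496 for Cox7b2, -0.0438 to 0.4343 for Cycs, -0.0982 to 0.1524 for Cyct, -0.0192 to 0.1488 for Ndufaf1, -0.1288 to 0.0756 for Ndufv2 and -0.073 to 0.4313 for Uqcrc1.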
